A study of Rattus norvegicus with 18 samples.

Results

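The nucleus accumbens, a ventral striatal region that serves reward and motivation, was profiled in male Sprague-Dawley rats, each on a whole-transcript array of its own. The comparison described here sets both methamphetamine groups, 6 arrays labelled shock resistant and 6 labelled shock sensitive, against the 6 arrays labelled control. These are 12 methamphetamine arrays and 6 controls of 18 arrays in all, and membership followed the labels alone. Per the labels, methamphetamine was self-administered with footshock as its adverse outcome, and every array, controls included, carries that description. The names of such groups refer to intake under shock, which resistant rats maintain and sensitive rats lower. The rats of each group were selected on the quality of their RNA, and no pooling of rats is stated. What the control rats received, the drug dose, the age of the rats and the clock time and delay at which tissue was taken are not stated in the labels read here. Drug history and shock history therefore cannot be told apart in this comparison. Both methamphetamine groups had equal weight, so each difference below is the mean of their 2 group means minus the control mean.

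All values are on the log2 scale, as judged from their range, and were used as deposited. Array medians lay between 5.43 and 5.56, and any 2 arrays correlated across features at 0.993 to 0.998. Negative control features, 1153 in number, centred on a median of 6.37, and the 10520 genes (47.6% of 22093) that averaged less are called background-level genes here. The mean level of 21 markers of medium spiny neurons, the projection neurons of the accumbens, spanned 12.22 to 12.91 in shock-resistant rats, 10.97 to 12.56 in shock-sensitive rats and 11.09 to 12.65 in controls. Its lowest arrays were shock-sensitive replicate 4 (10.97) and control replicate 1 (11.09). Ppp1r1b, Drd1, Drd2 and Adora2a, which define these neurons, were measured well above background in every array. Shock-resistant replicate 4 read 16.58 for Ttr, the choroid plexus gene, against at most 8.52 in any other array. In tissue of mixed cells, fewer cells of a type and less RNA per cell cannot be told apart.

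What both methamphetamine groups shared against controls was small in size at the level of single genes. C1h16orf92, a gene named after an open reading frame of the human genome, was the 1 gene past an adjusted p of 0.05 (0.00453% of genes tested). It read 5.14, 5.23 and 5.29 (lowest, median and highest array) among shock-resistant rats, 5.05, 5.14 and 5.25 among shock-sensitive rats, and 4.89, 4.94 and 4.995 in controls. All 12 methamphetamine arrays stood above every control, yet all 18 stood below the negative control median. The gene rose by 0.25 ± 0.034 (SE; limma, Benjamini-Hochberg adjusted p = 0.0190), which is 1.19-fold. Its call was lost after quantile normalization (adjusted p = 0.0595) or centring of each array on its median (0.0684). It was also lost without shock-resistant replicate 2 (with an adjusted p just over the threshold), shock-sensitive replicate 5 (0.0518) or control replicates 1, 2, 3, 5 or 6 (0.0503, 0.111, 0.0751, 0.0662 and 0.0763).

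Defb49, a beta-defensin gene also at background level, had the next smallest adjusted p (0.0537). Shock-resistant rats read 5.95, 6.01 and 6.30, shock-sensitive rats 5.52, 5.92 and 6.12, and controls 4.99, 5.44 and 5.63. Here 11 of 12 methamphetamine arrays lay above every control, and the difference was 0.60 ± 0.094 (SE), or 1.52-fold. It passed the threshold without shock-sensitive replicate 2 (adjusted p = 0.0165).

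At an unadjusted p under 0.05 stood 2156 genes (9.76%), of which 1580 were higher (7.15%) and 576 lower (2.61%). A looser criterion, which adds a difference of 1.3-fold or more to that p and is called nominal below, took 49 genes (0.222%), 27 higher (0.122%) and 22 lower (0.0996%). Leaving out shock-resistant replicate 1 gave 27 nominal genes, leaving out control replicate 1 gave 80, and leaving out control replicate 3 gave 77. In 20 genes (0.0905%) all 12 methamphetamine arrays stood above every control, and in 1 gene (0.00453%) all stood below. That gene was Cwc25, which encodes a splicing factor, at −0.13 ± 0.037 (SE, adjusted p = 0.309). Several of its methamphetamine arrays held the identical value of 7.8108. Of the 20 genes on the higher side, 18 were background-level genes, and the others (0.0173% of genes above background) were Ceacam19, a cell adhesion gene (0.24), and the provisional gene LOC102551406 (0.45). These 3 were chosen after their values were seen. The count of separated genes in both directions was 21, and it was 65, 37, 44, 34 and 33 without control replicates 1 to 5 and 36 without shock-sensitive replicate 2. The split by direction depended on normalization, with 9 genes above and 7 below every control after quantile normalization.

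The direction of the small differences followed the level of the gene. Background-level genes had a median difference of 0.04, and 1377 of 10520 (13.1%) stood above and 130 (1.24%) below controls at an unadjusted p under 0.05. Genes at or above the negative control median had a median difference of −0.02, with 203 of 11573 (1.75%) above and 446 (3.85%) below controls by the same criterion. Quantile normalization, which gives every array 1 common distribution, moved these medians to 0.0022 and −0.0025 and the calls over all genes to 779 higher and 671 lower. Centring each array on its median left 1443 higher and 541 lower. Counts in families of background-level genes are therefore given below together with their value after quantile normalization, which left 523 background-level genes higher (4.97%) and 414 lower (3.94%).

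**Figure D1:**
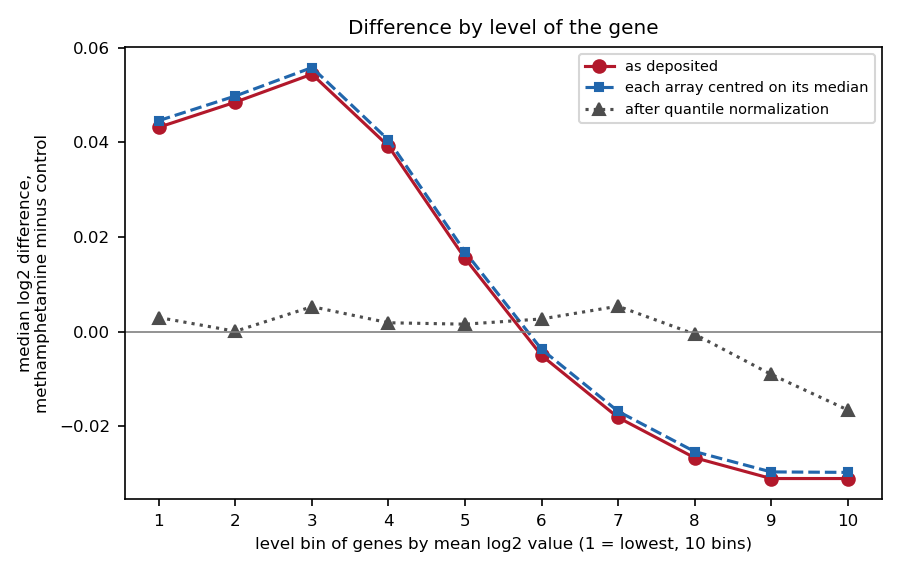
Median log2 difference, methamphetamine minus control, for each of 10 equal bins of the 22093 genes ranked by mean level (1 is lowest), from the values as deposited, after median centring and after quantile normalization. As deposited, the median lies at 0.0432 to 0.0544 in the 3 lowest bins and at −0.031 in the 2 highest, and after quantile normalization it lies between −0.0165 and 0.0054.

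The methamphetamine groups themselves differed in 0 genes at an adjusted p under 0.05 by limma (smallest adjusted p = 0.0852), while 1415 genes (6.40%) had an unadjusted p under 0.05. Against the same 6 controls, shock-resistant rats differed in 4 genes (0.0181%) and shock-sensitive rats in 0 at the adjusted threshold, with 2523 (11.4%) and 1345 (6.09%) genes at an unadjusted p under 0.05. For each gene below, the difference between shock-resistant and shock-sensitive rats is the contrast that holds no control array.

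Several genes of the circadian clock had small p. Among annotated genes at or above the negative control median that differed by at least 1.2-fold, Bmal1 was one of the 10 higher genes with the smallest p, and Per2, Bhlhe40 and Per1 were among the 10 lower ones. Cells of the striatum, like most cells, carry this transcriptional loop. BMAL1 with CLOCK or NPAS2 activates the Per, Cry, Nr1d and Bhlhe genes through E-box sequences. PER and CRY proteins then inhibit the activators, BHLHE40 and BHLHE41 compete with them at E-boxes, and the REV-ERB receptors encoded by Nr1d1 and Nr1d2 repress Bmal1. The level of most of these mRNAs depends on the time of day. The 18 clock genes analysed here all lay at or above the negative control median. Their list was written with earlier results of these data known. It includes Bmal1, Per2, Bhlhe40 and Per1, so its shares are not independent of the small p of those genes. At an unadjusted p under 0.05, 2 of the 18 were higher (11.1%, against 7.15% of all genes) and 7 were lower (38.9%, against 2.61% of all genes and 3.85% of those above background). None was past the adjusted threshold, and 0 met the nominal criterion. Nominally lower clock genes numbered 3 without control replicate 1 and 2 without control replicate 2, which also gave 1 nominally higher, and 1 without control replicate 3. The median difference over the 18 was −0.08 (−0.13 without control replicate 1), against 0.0091 over all genes and −0.02 over those above background, with 5 higher and 13 lower.

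Bmal1, the activator whose loss stops the clock in mice, stood higher mainly in shock-resistant rats. It read 9.86, 9.97 and 10.21 among shock-resistant rats, 9.47, 9.67 and 9.79 among shock-sensitive rats, and 9.20, 9.52 and 9.76 in controls. All 6 shock-resistant arrays lay above every control, whereas 1 of 6 shock-sensitive arrays did. The shared difference was 0.35 ± 0.074 (SE, adjusted p = 0.159), or 1.27-fold, made up of 0.53 in shock-resistant and 0.17 in shock-sensitive rats. Against controls alone, shock-resistant rats passed the adjusted threshold by limma (adjusted p = 0.047). In shock-sensitive rats the 95% interval was −0.01 to 0.34 and included no difference (adjusted p = 0.814). Shock-resistant minus shock-sensitive rats gave 0.36 (95% interval 0.18 to 0.54, unadjusted p = 0.000514), which did not pass over all genes (adjusted p = 0.664). Its partners differed less, Clock by 0.02 ± 0.036 and Npas2 by 0.16 ± 0.18 (SE). Npas2 stood 0.39 above controls in shock-resistant rats and at −0.08 in the shock-sensitive group.

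Among the repressors, the 3 period genes read lower in both groups. Per2 had the smallest p of the clock list and read 7.63, 7.89 and 7.97 among shock-resistant rats, 7.63, 7.74 and 7.82 among shock-sensitive rats, and 7.89, 8.18 and 8.43 in controls. All 6 shock-sensitive and 2 shock-resistant arrays lay below every control, and all 12 lay below the control median. The difference was −0.36 ± 0.075 (SE, adjusted p = 0.151), with −0.31 in shock-resistant and −0.41 in shock-sensitive rats, and these differed from each other by 0.10 (95% interval −0.08 to 0.28). Per1 read 8.47, 8.77 and 9.12 among shock-resistant rats, 8.55, 8.76 and 8.90 among shock-sensitive rats, and 8.68, 9.13 and 9.32 in controls. Its ranges overlapped, with 3 methamphetamine arrays below every control and 12 of 12 below the control median (−0.32 ± 0.093, SE, adjusted p = 0.316). Per3 differed by −0.34 ± 0.12 (SE, adjusted p = 0.407), with 11 of 12 arrays below the control median. Cry1, a cryptochrome, stood at −0.13 (unadjusted p = 0.0209), and its relative Cry2 at −0.09 (0.312).

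The E-box competitors also read lower in both groups. Bhlhe40 read 9.33, 9.56 and 9.75 among shock-resistant rats, 9.45, 9.58 and 9.72 among shock-sensitive rats, and 9.63, 9.90 and 10.20 in controls. In each methamphetamine group 4 of 6 arrays lay below every control, and all 12 lay below the control median. The difference was −0.34 ± 0.072 (SE, adjusted p = 0.152), nearly equal in shock-resistant (−0.35) and shock-sensitive rats (−0.33), with an interval of −0.19 to 0.16 for the gap between them. Bhlhe41 stood at −0.19 in each group. The REV-ERB genes ran in opposite directions. Nr1d1 read 9.34, 9.45 and 9.65 among shock-resistant rats, 9.11, 9.43 and 9.72 among shock-sensitive rats, and 9.02, 9.17 and 9.36 in controls, a difference of 0.25 ± 0.093 (SE, adjusted p = 0.405). Of the methamphetamine arrays 7 lay above every control, and 2 shock-sensitive arrays lay below the control median. Nr1d2 stood at −0.21 (unadjusted p = 0.0202), with 8 arrays below every control.

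**Figure D2:**
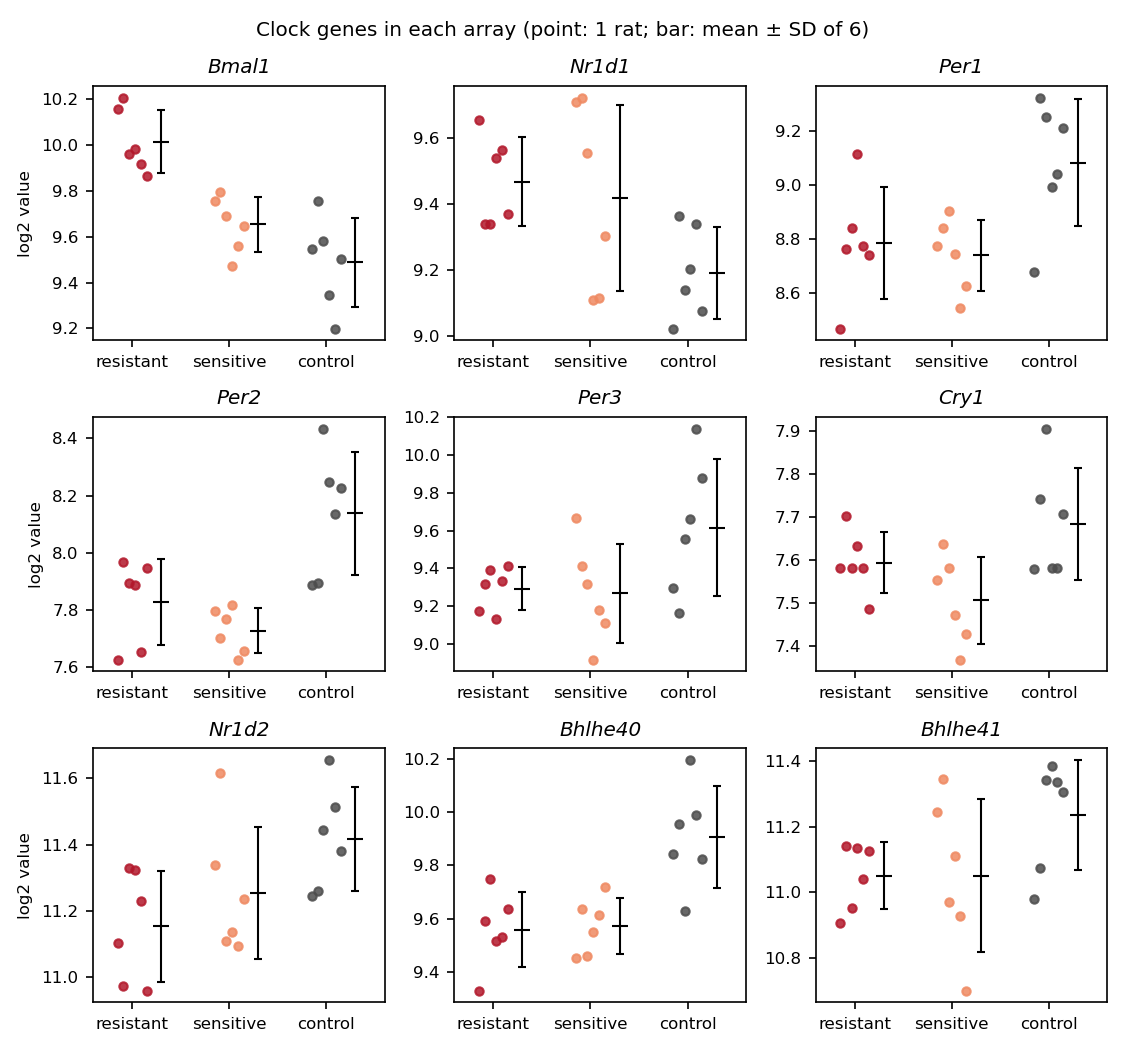
Log2 value of 9 clock genes in each array, by group (shock resistant, shock sensitive, control), with 1 point per rat and the bar showing mean ± SD of 6. Per2 and Bhlhe40 lie below the control median in all 12 methamphetamine arrays, and Bmal1 lies above every control in all 6 shock-resistant arrays but in 1 shock-sensitive array.

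The remaining clock genes showed differences closer to 0. Rora and Rorb, receptors that activate Bmal1, stood at −0.07 and −0.0052, Csnk1d and Csnk1e, kinases that phosphorylate PER proteins, at −0.07 each, Ciart, a repressor, at −0.11, and Btrc, which marks PER for degradation, at 0.01. None of these 6 had an unadjusted p under 0.05. Lower clock genes at an unadjusted p under 0.05 numbered 5 after quantile normalization and between 5 and 8 when any 1 array was left out, and 2 stood higher in each of these fits. With the mean of the medium spiny neuron markers as a covariate, the counts were 3 higher and 7 lower. Without the 2 arrays lowest in those markers, control replicate 1 and shock-sensitive replicate 4, they were 2 and 8.

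**Figure D3:**
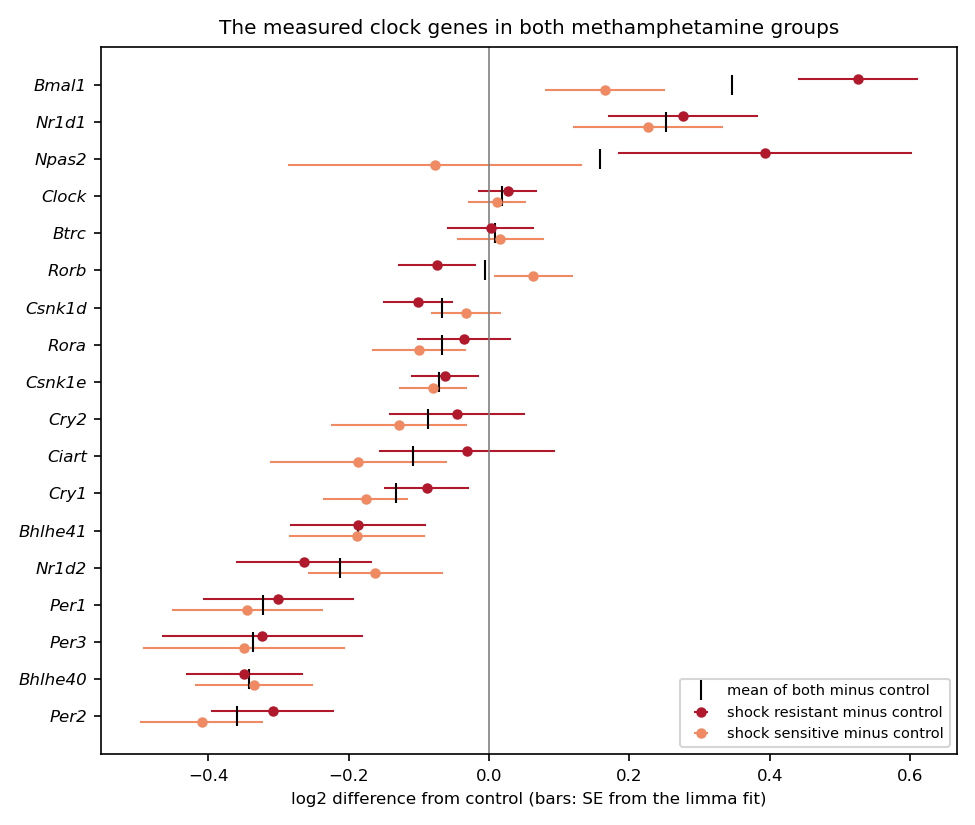
Log2 difference from control of the 18 measured clock genes in shock-resistant and in shock-sensitive rats (points, with the SE of the limma fit) and their mean (black tick). Both groups share the same 6 controls. Per1, Per2, Per3, Bhlhe40, Bhlhe41 and Nr1d2 lie below 0 and Nr1d1 and Bmal1 above 0 in both groups, while Npas2 and Rorb have opposite signs.

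Promoters of 16 of the 18 clock genes, from 250 bases before to 50 bases after the annotated start, were found in RefSeq's table for the rat assembly GRCr8. The sequences of 3 genes with large differences are given because they hold the letters that clock factors are known to bind. Motifs were searched on both strands. The E-box CACGTG was found in 3 of the 16 promoters (6.42% of all 33469 promoters), the variant E-box CACGTT in 3 (4.83%), the nuclear receptor hexamer AGGTCA in 2 (16.2%) and the cyclic AMP response element TGACGTCA in 0 (1.83%). None of these motifs contains another. Capitals mark the motif. Per2 holds CACGTT 62 bases before its start (chr9:99496944-99497243, minus strand), Bhlhe40 holds CACGTG 220 bases before it (chr4:143174200-143174499, plus strand), and Bmal1 holds AGGTCA 15 bases before it (chr1:176766078-176766377, plus strand). A match is a run of letters and not a measured binding site.
Per2: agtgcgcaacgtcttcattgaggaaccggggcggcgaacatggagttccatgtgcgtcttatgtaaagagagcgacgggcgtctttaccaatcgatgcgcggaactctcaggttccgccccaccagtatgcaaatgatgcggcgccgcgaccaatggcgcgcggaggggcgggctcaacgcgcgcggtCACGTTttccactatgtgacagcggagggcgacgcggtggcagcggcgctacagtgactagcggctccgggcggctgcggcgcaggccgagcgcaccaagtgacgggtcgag
Bhlhe40: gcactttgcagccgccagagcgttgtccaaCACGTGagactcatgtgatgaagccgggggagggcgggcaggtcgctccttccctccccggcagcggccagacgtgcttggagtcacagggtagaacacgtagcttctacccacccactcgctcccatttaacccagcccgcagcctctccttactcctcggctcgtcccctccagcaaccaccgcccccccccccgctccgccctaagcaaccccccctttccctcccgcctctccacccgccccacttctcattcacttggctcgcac
Bmal1: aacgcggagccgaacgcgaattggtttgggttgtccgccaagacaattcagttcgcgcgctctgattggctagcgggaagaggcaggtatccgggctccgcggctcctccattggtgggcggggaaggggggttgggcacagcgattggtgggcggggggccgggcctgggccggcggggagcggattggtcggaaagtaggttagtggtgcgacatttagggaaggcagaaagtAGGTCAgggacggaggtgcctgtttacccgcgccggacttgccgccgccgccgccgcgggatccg

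Genes on the output side of the clock were divided. Of 11 measured, 1 stood higher and 1 stood lower with an unadjusted p under 0.05, and they had a median of −0.09 (3 higher and 8 lower in value). These are 9.09% in each direction, against 7.15% of all genes higher and 2.61% lower. Without control replicate 1, 4 stood lower and the median was −0.16, and 4 also stood lower with array quality weights or without the 2 arrays lowest in medium spiny neuron markers. Quantile normalization left 0 lower, as did leaving out any of 10 other single arrays. Fabp7, which encodes the fatty acid binding protein of astrocytes and cycles with time of day in mouse brain, was the higher one. Shock-resistant rats read 9.69, 9.80 and 10.36, shock-sensitive rats 9.54, 9.91 and 10.76, and controls 8.85, 9.15 and 9.95. All 12 methamphetamine arrays lay above the control median, but 10 of them did not exceed the highest control. The difference was 0.64 ± 0.17 (SE, 1.56-fold, adjusted p = 0.289), with 0.59 in shock-resistant and 0.69 in shock-sensitive rats. The 18 astrocyte markers had a median difference of 0.0034 and a mean level of 11.47 to 11.80 in shock-resistant rats, 11.45 to 12.01 in shock-sensitive rats and 11.43 to 11.87 in controls. Noct, the rhythmic gene of nocturnin, was the lower one at −0.20. Dbp, Tef and Hlf, transcription factors driven directly by BMAL1, stood at −0.15, −0.09 and −0.17 with unadjusted p of 0.454, 0.285 and 0.414.

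Immediate early genes, which neurons switch on within minutes of activity, read mostly lower in rats with methamphetamine history. Of 24 measured, 20 had a lower value (44.8% of all genes did, and 55.2% a higher one), 5 were lower at an unadjusted p under 0.05 (20.8%, against 2.61% of all genes) and 0 were higher. The median difference was −0.13, and −0.14 after quantile normalization. Fos read 6.11, 6.89 and 7.15 among shock-resistant rats, 5.55, 6.80 and 7.06 among shock-sensitive rats, and 6.28, 7.15 and 8.62 in controls. Control replicate 2 was the highest array, and every methamphetamine array lay below the control median. The difference was −0.60 ± 0.28 (SE, adjusted p = 0.504). Arc, whose product acts at synapses, differed by −0.55 ± 0.26 (SE), and Egr2, a zinc finger transcription factor at background level, by −0.52 ± 0.22 (SE). Jund, whose product pairs with FOS in the AP-1 complex, and Fosl1, a gene of the FOS family itself, stood at −0.17 and −0.10. The other members had an unadjusted p above 0.05, among them Dusp1 (−0.62 ± 0.33), Nr4a1 (−0.38 ± 0.23), Egr1 (−0.34 ± 0.19) and Npas4 (0.04 ± 0.27, SE each). These genes were described as list members after their values were seen.

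Control replicate 2 held the highest control value of Fos (8.62), Egr2 (8.20), Arc (10.45) and Dusp1 (10.97). Without it 2 members stood lower and 1 stood higher with an unadjusted p under 0.05, 0 instead of 3 met the nominal criterion, and the median was −0.08. The lower members numbered 2 without control replicate 3 and 8 without control replicate 4. They numbered 3 without control replicate 6, shock-resistant replicates 1 or 2 or shock-sensitive replicates 1 or 4, and 3 after quantile normalization or with array quality weights.

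**Figure D4:**
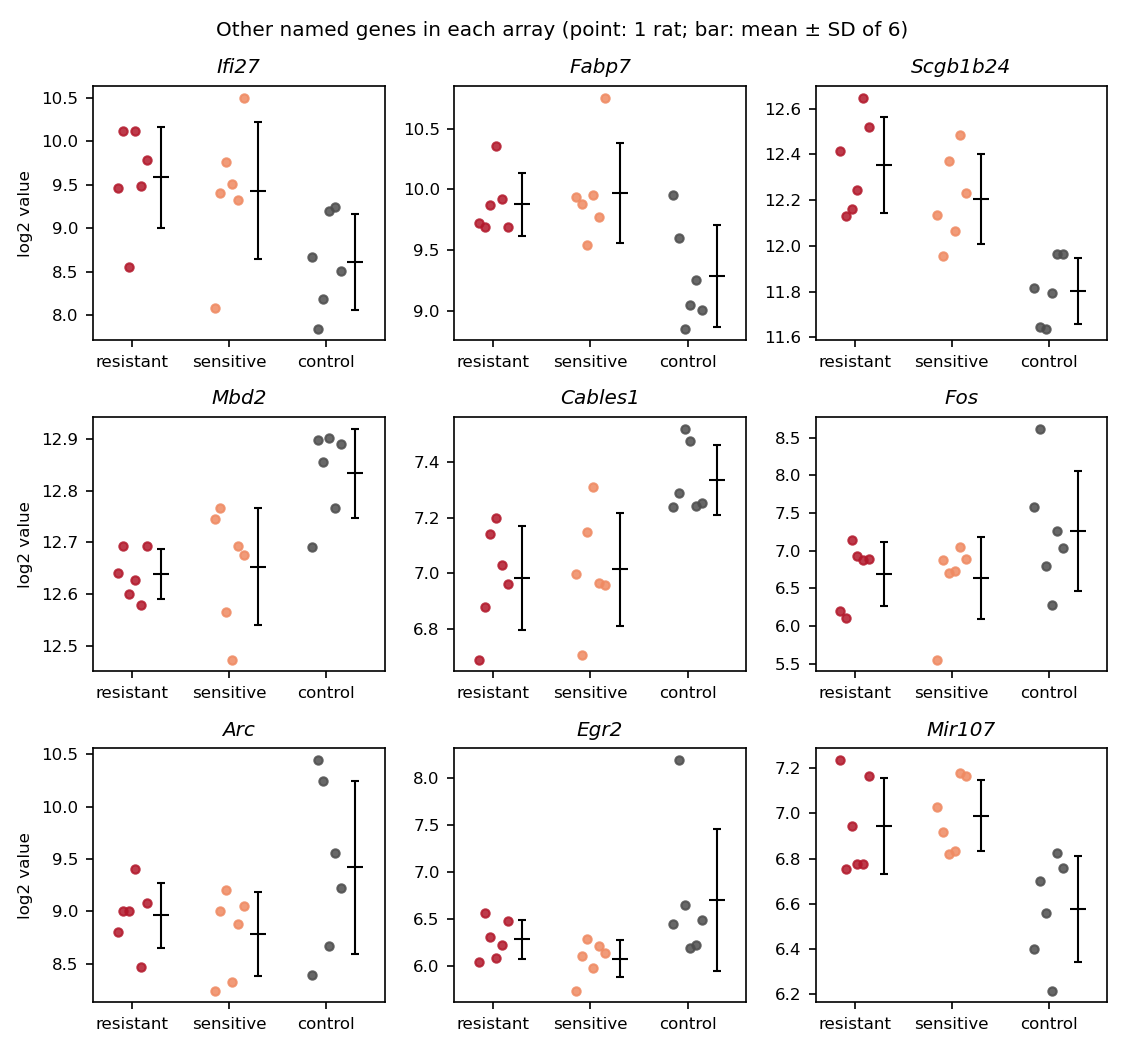
Log2 value of 9 further genes in each array, by group (shock resistant, shock sensitive, control), with 1 point per rat and the bar showing mean ± SD of 6. Control replicate 2 stands out at 8.62 for Fos and 8.20 for Egr2, while 11 of 12 methamphetamine arrays lie above every control for Scgb1b24 and below every control for Cables1.

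MicroRNA genes made up 11 of the 27 genes that were nominally higher. MicroRNAs are short RNAs that repress messengers pairing with their seed, the bases 2 to 8 of the mature strand. Of 382 measured microRNA genes, 11 were nominally higher (2.88%, against 0.122% of all genes) and 2 nominally lower (0.524%, against 0.0996%). Of the 11 higher ones 6 were at or above the negative control median and 5 below it. At an unadjusted p under 0.05, 69 were higher (18.1%, against 7.15% of all genes and 13.1% of background-level genes, which 276 of the 382 were) and 12 lower. After quantile normalization 54 were higher (14.1%, against 3.53% and 4.97%) and 22 lower. The SE of a difference had a median of 0.0941 in microRNA genes and 0.0635 in all genes, so a given fold is less precise here. With shock-resistant replicate 1 left out 5 were nominally higher, with control replicate 3 left out 6, with control replicate 1 or 4 left out 7, and with array quality weights 5. Array features annotated to these genes do not tell the host transcript, the precursor and the mature form apart.

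Mature sequences from RefSeq (GRCr8) were found for 16 of 18 microRNA genes looked up. Of the nominally higher genes above background, the 3 below are shown because their mature strand is known to be abundant in brain or to belong to a large family, and Mir106b because its 12 methamphetamine arrays all lay above every control. Capitals mark the seed.
rno-miR-107-3p: aGCAGCAUuguacagggcuauca
rno-miR-9a-5p: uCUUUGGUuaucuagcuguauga
rno-miR-92a-3p: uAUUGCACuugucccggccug
rno-miR-106b-5p: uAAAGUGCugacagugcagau
These 4 seeds differ from each other, and no seed was shared by any of the mature strands found for the 18 genes. In the whole table the seed of miR-92a-3p and that of miR-106b-5p occur in 6 mature strands each, that of miR-9a-5p in 3 and that of miR-107-3p in 2.

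Mir107 read 6.76, 6.86 and 7.24 among shock-resistant rats, 6.82, 6.97 and 7.18 among shock-sensitive rats, and 6.22, 6.63 and 6.83 in controls. Its ranges overlapped, with 8 of 12 methamphetamine arrays above every control (0.39 ± 0.096, SE, adjusted p = 0.221). A gene is called a host here where its span holds the microRNA gene, and strand was not compared. Pank1, the pantothenate kinase gene whose span holds Mir107, differed by −0.07 ± 0.066 (SE). Mir106b, at background level, read 5.15, 5.16 and 5.45 among shock-resistant rats, 5.05, 5.27 and 5.46 among shock-sensitive rats, and 4.63, 4.99 and 5.04 in controls. No array of the groups overlapped, and the difference was 0.32 ± 0.068 (SE, adjusted p = 0.159). Its host Mcm7, a subunit of the replication helicase, differed by 0.01 ± 0.059 (SE). Mir9-1 stood 0.39 ± 0.10 higher (SE, adjusted p = 0.257) with 2 arrays above every control, and the long noncoding RNA gene over it, LOC100911992, at 0.0075 ± 0.082 (SE). Mir92a1 stood at 0.40 and Mir466c, which had the smallest p of the family, at 0.39 (adjusted p = 0.289 and 0.151).

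Mir378 (0.30) and Mir105 (0.29) lie in Ppargc1b (0.07) and Gabra3 (−0.16). On the lower side Mir3582 stood at −0.32 and Mir532 at −0.30, both at background level, with 9 and 11 arrays below every control, and their hosts Mib1 and Clcn5 at −0.03 and −0.10. Among the measured host genes of the microRNAs named here, Nlrp12, whose span holds Mir292, was the 1 with an unadjusted p under 0.05. Nlrp12 stood at 0.14 (limma, unadjusted p = 0.00143) and lay at background level. Hosts were found by position alone, so a host may lie on the other strand. The remaining nominally different microRNA genes, Mir495, Mir743a, Mir29a, Mir222, Mir181b1, Mir292 and Mir122 on the higher side and Mir3579 and Mir151 on the lower, were named after their values were seen. They ranged from 0.39 to 0.58 and from −0.41 to −0.38. Mir29a stood at −0.04 in shock-resistant and 0.86 in shock-sensitive rats, so its shared value comes mainly from shock-sensitive rats. Others were also unequal, Mir495 at 0.29 in shock-resistant and 0.86 in shock-sensitive rats and Mir181b1 at 0.21 and 0.575. Mir743a leaned the other way, at 0.63 in shock-resistant and 0.31 in shock-sensitive rats.

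Interferon response genes had 2 of 21 members higher at an unadjusted p under 0.05 (9.52%, near the 7.15% of all genes and below the 13.1% of background-level genes, which 15 of the 21 were), 0 lower, and a median of 0.04 that was 0.0003 after quantile normalization. The higher members numbered 4 without shock-resistant replicate 4, 3 when shock-sensitive replicate 2 or control replicate 1 was left out, and 1 without control replicate 5. Ifi27, a gene induced by type I interferon, had the largest fold of all genes at the nominal criterion. Shock-resistant rats read 8.56, 9.63 and 10.12, shock-sensitive rats 8.08, 9.46 and 10.50, and controls 7.84, 8.59 and 9.24. In each methamphetamine group 5 of 6 arrays lay above every control, and the remaining array of each lay below the control median. The difference was 0.90 ± 0.30 (SE, 1.87-fold, adjusted p = 0.358). Bst2, which encodes the antiviral protein tetherin, stood 0.19 higher (adjusted p = 0.425). Microglia markers had a median difference of 0.08, with 0 of 19 at an unadjusted p under 0.05, against 9.76% of all genes.

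Of the genes that write, erase or read DNA methylation, 1 of 16 was higher and 2 were lower at an unadjusted p under 0.05, with a median of −0.0089. Over all genes 7.15% were higher and 2.61% lower, so 1 higher member is near that share. Mbd2, a reader that binds methylated CpG and recruits repressors, read 12.58, 12.63 and 12.69 among shock-resistant rats, 12.47, 12.69 and 12.77 among shock-sensitive rats, and 12.69, 12.87 and 12.90 in controls. All 12 methamphetamine arrays lay below the control median and 7 below every control. The difference was −0.19 ± 0.045 (SE, adjusted p = 0.219), or 1.14-fold lower, and nearly equal in shock-resistant (−0.19) and shock-sensitive rats (−0.18). Dnmt1, the maintenance methyltransferase, stood at −0.09 ± 0.034 (SE) with 10 of 12 arrays below every control, several of them at the identical value of 8.3974. Dnmt3a, which sets new methylation, differed by 0.0031 ± 0.055 (SE). Of 18 histone deacetylase genes 2 were higher at that criterion (against 7.15% of all genes), Hdac10 by 0.14 ± 0.044 and the background-level gene Hdac7 by 0.06 ± 0.027 in value (SE; adjusted p = 0.328 and 0.489).

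Metabolic and stress genes showed isolated differences. Of 23 antioxidant genes 2 stood lower at an unadjusted p under 0.05 (against 2.61% of all genes and 3.85% of those above background), the reductases Txnrd1 (−0.12 ± 0.036) and Gsr (−0.18 ± 0.081, SE each). Of 18 genes of one-carbon and folate metabolism, Mthfd1l, a mitochondrial folate enzyme, stood at −0.19 ± 0.045 (SE, adjusted p = 0.219) and Gnmt, a methyltransferase at background level, at 0.10. Mthfd1l was unequal between the groups, at −0.30 in shock-resistant and −0.08 in shock-sensitive rats (difference −0.21, 95% interval −0.32 to −0.10, adjusted p = 0.664). Glucocorticoid and stress response genes had 2 of 23 lower by the same criterion and against the same shares, Per1, already given as a clock gene, and Sult1a1, a sulfotransferase (−0.33 ± 0.14, SE), with a median of −0.08. Of 23 heat shock and chaperone genes and 21 endoplasmic reticulum stress genes, 0 had an unadjusted p under 0.05, against 9.76% of all genes.

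Prodynorphin and proenkephalin, the precursors of dynorphin and enkephalin peptides in medium spiny neurons, did not share a difference between the groups. Pdyn read 11.90, 13.24 and 14.02 among shock-resistant rats, 11.33, 11.96 and 12.72 among shock-sensitive rats, and 10.88, 11.90 and 13.50 in controls. The ranges overlapped, with 3 shock-resistant arrays and no shock-sensitive array above every control. Its shared difference was 0.58 ± 0.35 (SE, adjusted p = 0.616), from 1.13 in shock-resistant and 0.03 in shock-sensitive rats. Penk stood at 0.11 ± 0.19 (SE, adjusted p = 0.897), from 0.43 and −0.21, and at −0.04 without control replicate 1. Medium spiny neuron markers had the same split, with a median of 0.38 in shock-resistant and −0.24 in shock-sensitive rats and 0.04 for both. The median for both turned to −0.19 without control replicate 1, −0.12 with array quality weights and −0.07 without control replicate 1 and shock-sensitive replicate 4 together, and it was 0.13 without control replicate 3 or shock-sensitive replicate 4. It also lay below 0 without shock-resistant replicate 1 or shock-sensitive replicates 1 or 2. The part of these markers in the peptide values was not tested here. Among 8 opioid and 18 dopamine signalling genes, 0 opioid genes and 1 dopamine gene had an unadjusted p under 0.05, against 9.76% of all genes. That dopamine gene was Slc6a3, the dopamine transporter gene, at background level (0.14, chosen after its values were seen).

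Receptor and growth factor lists held few members with small p. Of 7 metabotropic glutamate receptor genes Grm6, at background level, stood at 0.16 (unadjusted p = 0.00682) and Grm8 at −0.22 (0.0816). Among 20 peptides other than opioids, Nmu and Rln3, the genes of neuromedin U and relaxin-3, stood at 0.18 and 0.22, both at background level. Of 19 neurotrophic genes Nrtn, the neurturin gene at background level, stood at 0.15 and Fgf2, basic fibroblast growth factor, at −0.28 ± 0.10 (SE, adjusted p = 0.404). Fgf2 read 9.96, 10.12 and 10.66 among shock-resistant rats, 9.89, 10.31 and 10.45 among shock-sensitive rats, and 10.39, 10.45 and 10.76 in controls, and 7 of 12 methamphetamine arrays lay below every control. Of 15 NMDA, AMPA and kainate receptor subunits 1, and of 14 GABA receptor subunits 0, had an unadjusted p under 0.05, against 9.76% of all genes.

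Olfactory, vomeronasal and trace amine receptor genes and beta-defensin genes read mostly at background level here and leaned upward as deposited. The share called higher in beta-defensin genes was well above that of background-level genes. Of 1128 olfactory receptor genes, all below the negative control median, 155 stood higher (13.7%, against 13.1% of background-level genes) and 11 stood lower with an unadjusted p under 0.05 (median 0.07), and 83 and 31 after quantile normalization (median 0.02). Vomeronasal receptor genes gave 18 higher (12.2%, just under the 13.1% of background-level genes) and 2 lower of 148, and 12 higher and 8 lower after quantile normalization. Beta-defensin genes, which encode antimicrobial peptides, gave 15 higher of 38 (39.5%, against 13.1% of background-level genes) and 0 lower, with a median of 0.12. After quantile normalization 11 were higher (28.9%, against 4.97% of background-level genes) and 1 lower, with a median of 0.09. Trace amine receptor genes gave 4 higher of 17 (23.5%, against 13.1%) with a median of 0.15, and 1 higher (5.88%, against 4.97%) with a median of 0.0982 after quantile normalization.

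Members of these families with the smallest p differed in how far they overlapped with controls. Taar4, a trace amine receptor, read 4.13, 4.19 and 4.24 among shock-resistant rats, 4.22, 4.24 and 4.60 among shock-sensitive rats, and 3.88, 3.97 and 4.09 in controls. All 12 methamphetamine arrays lay above every control (0.28 ± 0.053, SE, adjusted p = 0.125). The same separation held for the olfactory receptor gene Or52j3 (0.27), while Or5al1 (0.52) had 10 of 12 arrays above every control. Defb25 (0.31), which lay above the negative control median, and Taar8c (0.17) had 5 each. Vom2r78 (0.33) and Vom2r58 (0.27) had 6 and 7.

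**Figure D5:**
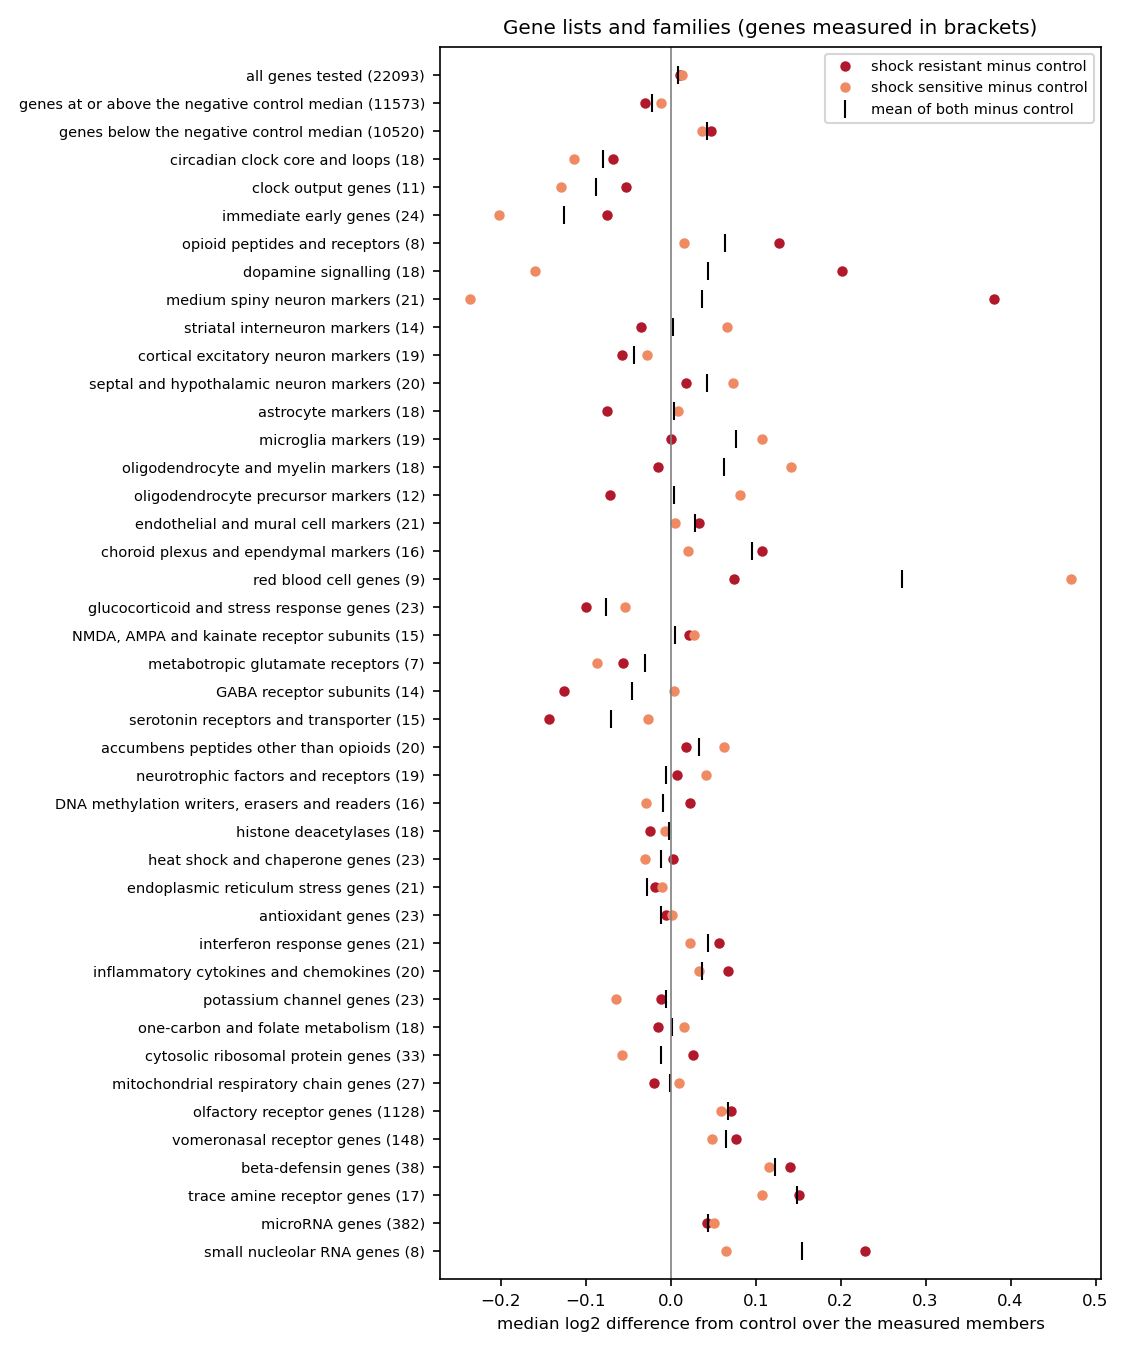
Median log2 difference from control over the measured members of each gene list or family, for shock-resistant rats, shock-sensitive rats and their mean (black tick). Clock, clock output and immediate early genes lie below 0 in both methamphetamine groups, beta-defensin and trace amine receptor genes above 0 in both, and medium spiny neuron markers on opposite sides, at 0.38 and −0.24.

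Outside these lists, and among annotated genes above background that stood at least 1.2-fold higher, Scgb1b24 had the smallest p. It is a gene of the secretoglobin family of small secreted proteins. It read 12.13, 12.33 and 12.65 among shock-resistant rats, 11.95, 12.18 and 12.48 among shock-sensitive rats, and 11.64, 11.80 and 11.97 in controls. All but 1 of the 12 methamphetamine arrays lay above every control, and the difference was 0.48 ± 0.088 (SE, 1.39-fold, adjusted p = 0.123). Rpl27l1, a ribosomal protein-like gene (0.32), and Krtap9-7, a keratin-associated protein gene (0.40), had 9 and 11 arrays above every control.

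Cables1, which links the kinases CDK5 and ABL, stood lower in 11 of 12 arrays than every control. Shock-resistant rats read 6.69, 6.99 and 7.20, shock-sensitive rats 6.71, 6.98 and 7.31, and controls 7.24, 7.27 and 7.52 (−0.34 ± 0.083, SE, adjusted p = 0.221). Pex11a, which acts in peroxisome division, stood at −0.42 ± 0.13, Gpatch4, a G-patch protein gene, at −0.48 ± 0.13, Ccdc30, a coiled-coil protein gene, at −0.38 ± 0.10, and Rbm24, an RNA-binding protein gene, at −0.32 ± 0.091 (SE each). Tmem186, a membrane protein gene, and St6gal1l, a sialyltransferase-like gene at background level, stood at −0.29 and −0.30, the second with 11 arrays below every control. Tp53bp2, whose product binds p53, stood at −0.41 in shock-resistant and −0.14 in shock-sensitive rats (difference −0.26, 95% interval −0.44 to −0.08, adjusted p = 0.753).

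Marker lists of other cell types had small shared medians. Cortical excitatory neuron markers had a median of −0.04 and a mean level of 7.80 to 8.01 in shock-resistant rats, 7.71 to 8.34 in shock-sensitive rats and 7.68 to 8.58 in controls, with Neurod6 at background level. Slc17a7, which defines these neurons, ranged from 6.34 in control replicate 1 to 10.54 in control replicate 4, with 10.46 in shock-sensitive replicate 6. Septal and hypothalamic neuron markers had a median of 0.04 and oligodendrocyte and myelin markers of 0.06, with 0 of 20 and 0 of 18 at an unadjusted p under 0.05 (9.76% of all genes). The septal or hypothalamic markers Slc17a6 and Trh read highest in shock-sensitive replicate 4 (9.90 and 7.29) and control replicate 1 (9.05 and 6.36). These arrays were also the lowest in medium spiny neuron markers. Red blood cell genes had the largest shared median, 0.27, from 0.07 in shock-resistant and 0.47 in shock-sensitive rats, with 0 of 9 at an unadjusted p under 0.05. Without control replicate 5 this count was 5 and the median 0.36, and without shock-resistant replicate 2 it was 2. Over all 22093 genes 1407 were higher and 542 lower without control replicate 5, and 1496 and 476 without shock-resistant replicate 2. The mean level of the red blood cell genes was 7.51 to 8.23 in shock-resistant rats, 7.92 to 8.93 in shock-sensitive rats and 7.57 to 8.54 in controls. Their part in any difference above was not tested. Of 27 respiratory chain genes 0, and of 33 cytosolic ribosomal protein genes 1, had an unadjusted p under 0.05, against 9.76% of all genes.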

How the data were processed

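Per the labels' protocols, Qiagen chemistry gave total RNA, from which the Affymetrix WT Plus kit made biotin-labelled cDNA. The submitters' processing notes name Affymetrix Expression Console as the source of the values. The authors deposited 1 value per feature and array, taken here as log2 because of their range, while no label read here states the summarisation, the normalization between arrays or a filter. Nothing says how the rats of a group were raised or run together, so p-values measure the spread between these rats' arrays alone. Precision is limited by 6 arrays per group.

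There were 70580 features, 1738 of them controls, and 0 missing values. Of the other 68842, 23446 carried 1 gene symbol in the platform annotation, 505 several and 44891 none, and the last 2 kinds were left out. Symbols were updated by gene number against RefSeq's rat annotation (22077 features matched). For 1182 genes with several features the one with the highest mean was kept, and no filter on low values was applied. One limma fit (limma 3.58.1, R 4.3.3, default lmFit and eBayes) over all 18 arrays with group as the only term gave the contrast of both methamphetamine groups, averaged with equal weight, against control, and Benjamini-Hochberg adjustment ran over 22093 genes with a threshold of 0.05. The fit was tested on simulated data. Counting, sequence matching and drawing used Python 3.11.15, numpy 2.4.6, pandas 2.3.3 and matplotlib 3.10.9.

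Genes named were those past the adjusted threshold, the 10 higher and 10 lower expressed genes and the 3 higher and 3 lower background-level genes with the smallest p and at least a 1.2-fold difference (no provisional symbols or pseudogenes), Pdyn and Penk, and, from each list in which any gene had an unadjusted p under 0.01, the 2 genes lowest in p. Other list members, host genes and marker genes were described as members of their group after their values were seen. The comparison, the lists and the rule were chosen with earlier results of these data known. Between arrays that share a replicate number, correlations of deviations ran from −0.31 to 0.29 over 18 pairs between groups (median 0.0063). They cannot decide whether rats of the same number were handled together. No label read here states a pairing, and numbers were not taken as pairs in the main fit. Alternatives were other normalizations, feature choices, variance estimates and covariates, and each array left out.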

Additional observations from a re-analysis of the deposited data

Results flagged for a closer look

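Of 162 groups of 6 arrays (54 named genes in 3 groups), 16 held an array far from the other 5 by Dixon's criterion, which chance alone marks in about 1 group in 20. Each value follows as read, with no explanation. In Dnmt1, Hdac7 and Nmu several arrays held an identical value (8.3974, 5.9274 and 5.7034). Ties were not limited to these genes, and occurred for example in Cry1 (7.582), Clock (11.7449) and Mbd2 (12.6941). The effect of such ties on this criterion and on the SE was not tested.

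In genes given as higher in methamphetamine rats, Fabp7 read 10.36 in shock-resistant replicate 4, where the other arrays of the group lay at 9.69 to 9.92, and 10.76 in shock-sensitive replicate 6, where they lay at 9.54 to 9.95. Mir9-1 read 9.03 in shock-resistant replicate 5 (others 9.20 to 9.29). Mir106b read 4.63 in control replicate 2 (others 4.93 to 5.04), and Krtap9-7 read 5.90 in control replicate 4 (others 6.23 to 6.41). Hdac7 read 5.96 in shock-resistant replicate 5 (others 5.92 to 5.93) and 6.02 in shock-sensitive replicate 5 (others 5.93 to 5.95). Or52j3 read 4.26 in shock-resistant replicate 2 (others 3.83 to 3.99), and Bst2 read 7.59 in shock-sensitive replicate 2 (others 7.98 to 8.20). Nmu read 5.79 in shock-sensitive replicate 3 (others 5.65 to 5.70), and Nrtn read 5.88 in shock-sensitive replicate 1 (others 5.98 to 6.04).

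In genes given as lower, Mir532 read 4.82 in shock-resistant replicate 1 (others 5.09 to 5.23), and Dnmt1 read 8.45 in shock-sensitive replicate 6 (others 8.38 to 8.40). St6gal1l read 5.56 in control replicate 1 (others 5.03 to 5.23), as did Txnrd1 at 9.79 in the same array (others 9.57 to 9.64). Noct read 7.44 in control replicate 2 (others 6.87 to 7.02), the array that also held the highest Fos and Egr2 values.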

How the results depend on the processing

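Genes past the adjusted threshold numbered 1, and 0 after quantile normalization, median centring, restriction to genes at or above the negative control median or without the 2 arrays lowest in medium spiny neuron markers, 2 over all features, with trend and robust variance or with the medium spiny neuron marker mean as covariate, 3 with array quality weights, and 0 to 2 with each array left out. Genes at the nominal criterion numbered 49, and 253 at a 1.2-fold and 7 at a 1.5-fold threshold, 444 over all features, 32 among genes at or above the negative control median, 77 without the 2 arrays, and 27 to 80 with each array left out. Genes with all methamphetamine arrays on one side of every control numbered 21, and 10 after median centring, 69 over all features, 3 among genes at or above the negative control median, 72 without the 2 arrays, and 21 to 65 with each array left out. Fewer genes enter with a filter, more features enter with all features, and fewer arrays make separation easier; the cause of the other shifts was not tested. With the replicate number as a block 1 gene passed, Scgb1b24 (adjusted p = 0.0270) in place of C1h16orf92 (0.0840), and the nominal count was 47. Of 18 arrays 5 correlated best with an array of their own number. Such correlations cannot decide whether rats of the same number were handled together, and no label read here states it. C1h16orf92 also lost its call over all features (0.0586) and without the 2 arrays (0.0902). Defb49 gained one with trend and robust variance (0.0492), array weights (0.0137) or the marker mean as covariate (0.0265). Penk, at 0.11, ranged from −0.0353 without control replicate 1 to 0.2496 without control replicate 2. Of 1494 values of the 54 named genes under alternatives 1476 kept direction and side of the threshold. A signal near that of negative control features limits 47.6% of the genes.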

Other observations

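Several genes outside the lists met the nominal criterion in the shared comparison with the same sign in both methamphetamine groups, and are given here as values chosen after they were seen. Mc4r, the melanocortin receptor gene that acts in feeding, stood at −0.39 in shock-resistant and −0.38 in shock-sensitive rats, with 8 of 12 arrays below every control (adjusted p = 0.417). Rasd1, a small GTPase gene induced by glucocorticoids, stood at −0.45 in shock-resistant and −0.35 in shock-sensitive rats (adjusted p = 0.418). Gpd1, the glycerol-3-phosphate dehydrogenase gene of oligodendrocytes, stood at −0.59 and −0.36 (adjusted p = 0.471). Against controls alone, shock-sensitive rats had an unadjusted p of 0.0613 for Rasd1 and 0.145 for Gpd1.

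Other nominal genes took their shared value from shock-resistant rats. Calb1, the calbindin gene of medium spiny neurons, stood at 0.91 in shock-resistant and 0.0068 in shock-sensitive rats, Reln, the reelin gene, at 0.88 and −0.03, and Pmepa1, an inhibitor of TGF-beta signalling, at 0.83 and −0.02. Nrp2, a semaphorin receptor gene, stood at −0.97 and −0.26, and Tmem196, a membrane protein gene, at −0.74 and −0.09. None of these passed the adjusted threshold in the shared comparison (adjusted p = 0.436 to 0.505), and 0 genes passed it between the methamphetamine groups by limma (1415 had an unadjusted p under 0.05).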
